A study of Mus musculus with 5 samples.

Results

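The immediate early genes Fos, Fosb, Jun, Junb, Egr1, Atf3, Zfp36, Klf2, Klf4 and Ier2 were examined in heart RNA, on every probe set whose platform annotation names exactly 1 of them. These 10 genes, of 18193 with such a probe set on the array, were read by 12 probe sets, Jun and Klf4 by 2 each and the others by 1. A probe set is a group of short oligonucleotides that reads 1 or more transcripts on an Affymetrix Mouse Genome 430 2.0 array. The tested animals were 3 female NZB_W mice with lupus nephritis and moderate kidney injury by Austin scoring, aged 12 to 15 weeks. NZB_W is the F1 cross of the NZB and NZW strains, which develops a lupus-like disease with immune complex nephritis. The controls were 2 age-matched female NZW mice, the healthy parental strain, without kidney injury. All mice were untreated, and all hearts were taken after bleeding and saline perfusion. Strain and disease cannot be told apart between these groups, so each difference is one between the 2 kinds of mice.

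Immediate early genes are transcribed within minutes of a growth, stress or mechanical signal, from promoters already set for it, and need no new protein synthesis. Their mRNAs are short-lived. Fos and Fosb pair with Jun and Junb through leucine zippers to form AP-1, and Atf3, a stress-induced factor of the same bZIP class, can pair with Jun proteins. Egr1 is a zinc finger factor induced by mitogen-activated protein kinase (MAPK) signals through the serum response factor SRF. Klf2 and Klf4 are Krüppel-like zinc finger factors best known in heart tissue from endothelium, where flowing blood maintains them. Zfp36 encodes tristetraprolin, which is not a transcription factor but an RNA-binding protein that hastens decay of cytokine mRNAs, and Ier2 is a small nuclear protein of the same early response. How long hearts waited before extraction, and the time of day, are not given in the sources used here.

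Promoter sequences are shown because the members share their early induction and differ in the control letters near their starts. RefSeq windows on GRCm38.p6, 250 bases before and 50 bases after a transcript start, matched 8 of the 10 members, all but Egr1 and Ier2. The stretches below end at the base before the start and run 5′ to 3′ along the transcript. They are of Fos, the classic member, and of the 4 genes whose groups did not overlap on the arrays, and capitals mark matches to the CRE core TGACG, the EGR site GCGNGGGCG, the TATA box TATAAA, the serum response element and the MEF2 site, each searched on both strands.
Fos, chr12:85473770-85473889, plus strand: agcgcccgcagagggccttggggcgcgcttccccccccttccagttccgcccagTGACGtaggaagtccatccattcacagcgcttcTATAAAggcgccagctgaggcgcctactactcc
Atf3, chr1:191183334-191183453, minus strand: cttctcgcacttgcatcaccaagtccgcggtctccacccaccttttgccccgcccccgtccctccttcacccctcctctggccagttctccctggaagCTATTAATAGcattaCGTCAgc
Zfp36, chr7:28379229-28379348, minus strand: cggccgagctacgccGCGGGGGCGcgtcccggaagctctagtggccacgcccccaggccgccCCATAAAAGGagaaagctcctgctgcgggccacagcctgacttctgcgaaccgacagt
Klf2, chr8:72318812-72319061, plus strand: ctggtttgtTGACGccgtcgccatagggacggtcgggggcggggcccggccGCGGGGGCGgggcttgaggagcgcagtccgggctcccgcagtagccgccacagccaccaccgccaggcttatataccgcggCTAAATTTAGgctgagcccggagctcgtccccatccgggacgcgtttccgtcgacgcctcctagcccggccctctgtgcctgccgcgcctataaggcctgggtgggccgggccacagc
Klf4, chr4:55532476-55532725, minus strand: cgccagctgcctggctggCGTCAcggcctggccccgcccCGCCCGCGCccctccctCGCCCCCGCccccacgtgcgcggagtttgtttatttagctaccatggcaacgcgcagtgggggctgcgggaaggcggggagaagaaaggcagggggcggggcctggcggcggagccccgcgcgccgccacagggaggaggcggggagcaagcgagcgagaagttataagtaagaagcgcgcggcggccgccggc

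The CRE core, letters bound by CREB and ATF factors, occurred in 6 of the 8 member windows (Fos, Fosb, Junb, Atf3, Klf2 and Klf4), against 20.9% of 32544 promoter windows of the same length. The full CRE, TGACGTCA, was in 0 of 8, against 1.8% of all windows, and the AP-1 site TGANTCA was also in 0 of 8, against 7.79%. The EGR site was in 4 of 8 (Fosb, Zfp36, Klf2 and Klf4), against 5.6%, and Klf4 held it at 2 places. In Fosb, Klf2 and Klf4 it overlapped the GC box GGGCGG, to which Sp1 and Krüppel-like factors bind, and which was in 7 of 8 windows against 35.9%. A MEF2 site, read by myocyte enhancer factors, lay in Atf3, Jun and Klf2 (3 of 8, against 3.16%), and a serum response element, the SRF site, in Zfp36 (1 of 8, against 1.64%), where it shared 1 base with a GC box. TATAAA was found in 2 of 8 (13.6% of all windows), in Fos at position -33 and in Junb just after its annotated start, and CCAAT in 3 of 8 (37.4%). Between 58.4% and 74.0% of the 250 bases before each member's start were G or C, and no comparison with windows of like composition was made. Sites more than 250 bases before a start were not searched, nor were Egr1 and Ier2, so a motif not found here may lie farther upstream. These are matches of letters, and nothing in the arrays measures binding.

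**Figure D1:**
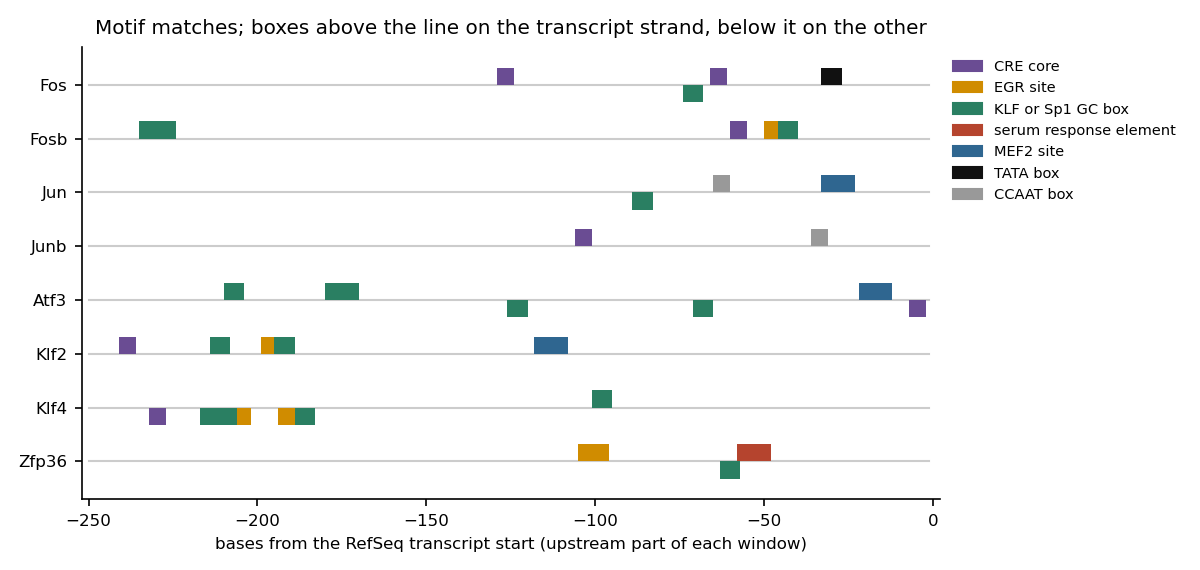
Motif matches in the 250 bases before the RefSeq transcript start of 8 member genes, by distance from the start in bases; boxes above each line are on the transcript strand and boxes below it on the other, and where GC boxes overlap EGR sites the GC box is drawn on top. CRE cores appear in 6 of the 8 genes and EGR sites in 4 (Fosb, Klf2, Klf4 and Zfp36).

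The values are deposited log2 levels, 1 per probe set and array, and only probe sets brighter than their array's median on 2 or more arrays were tested. Of the 12 member probe sets 11 met this, each on all 5 arrays, and that of Fosb did not. Heart muscle genes were bright everywhere, with Myh6 between 14.09 and 14.25, but 3 of the 5 atrial markers split the arrays across the groups. Myl7, the atrial myosin light chain, read 3.87, 10.24 and 13.01 on NZB_W arrays 1, 2 and 3, against 13.14 and 4.76 on NZW arrays 1 and 2, and Myl4 and Sln had the same order of arrays within each group. By these 3 markers NZB_W array 1 and NZW array 2 carried little atrial signal, and NZB_W array 3 and NZW array 1 much. The other 2 markers did not split the arrays so. Nppa was bright throughout, at 13.31, 13.155 and 13.96 in NZB_W against 13.70 and 12.77 in NZW. Bmp10 read 4.33, 4.33 and 4.19 against 5.96 and 4.19, raised on NZW array 1 only. NZB_W array 3 also stood apart as a whole: its correlation with NZB_W array 1 was 0.977 and with array 2 0.981, where arrays 1 and 2 reached 0.993. The 5′ minus 3′ log2 difference of the beta-actin control probes, a sign of RNA length, was lowest for NZB_W array 3 (-1.31) and NZW array 2 (-1.19), and the other 3 arrays had -0.88 to -0.89. The 18S ribosomal RNA control read 12.69 on NZW array 2 and 9.97 to 10.47 on the other 4 arrays. Fos, Fosb, Atf3, Egr1, Zfp36 and Ier2 all had their lowest value on NZW array 2. The part of the 18S signal in these values was not tested. In bulk RNA, fewer cells of a type and less RNA per cell cannot be told apart. The arrays are called biological replicates, and their number limits the precision of every value.

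Each of the 10 genes averaged higher in NZB_W than in NZW hearts on its brightest probe set, by between 0.06 and 1.04 on the log2 scale, and no member probe set passed the test. With limma and Benjamini-Hochberg adjustment over 22804 probe sets, 0 of the 11 tested member probe sets had an adjusted p under 0.05, where 0.0219% of all probe sets did. Their adjusted p-values ran from 0.625 to 0.992. At an unadjusted p under 0.05, 4 of the 11 were higher in NZB_W (Atf3, Zfp36, Klf2 and 1 of Klf4) and 0 lower, beside 2.27% of all probe sets higher. In the same 4, every NZB_W array lay above both NZW arrays, beside 6.96% of all probe sets. The members were chosen with earlier results of these arrays known, so these shares are a description. The median log2 difference was 0.33 over the 10 members and -0.01 over all 11896 genes tested, of which 45.5% were higher in NZB_W.

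**Figure D2:**
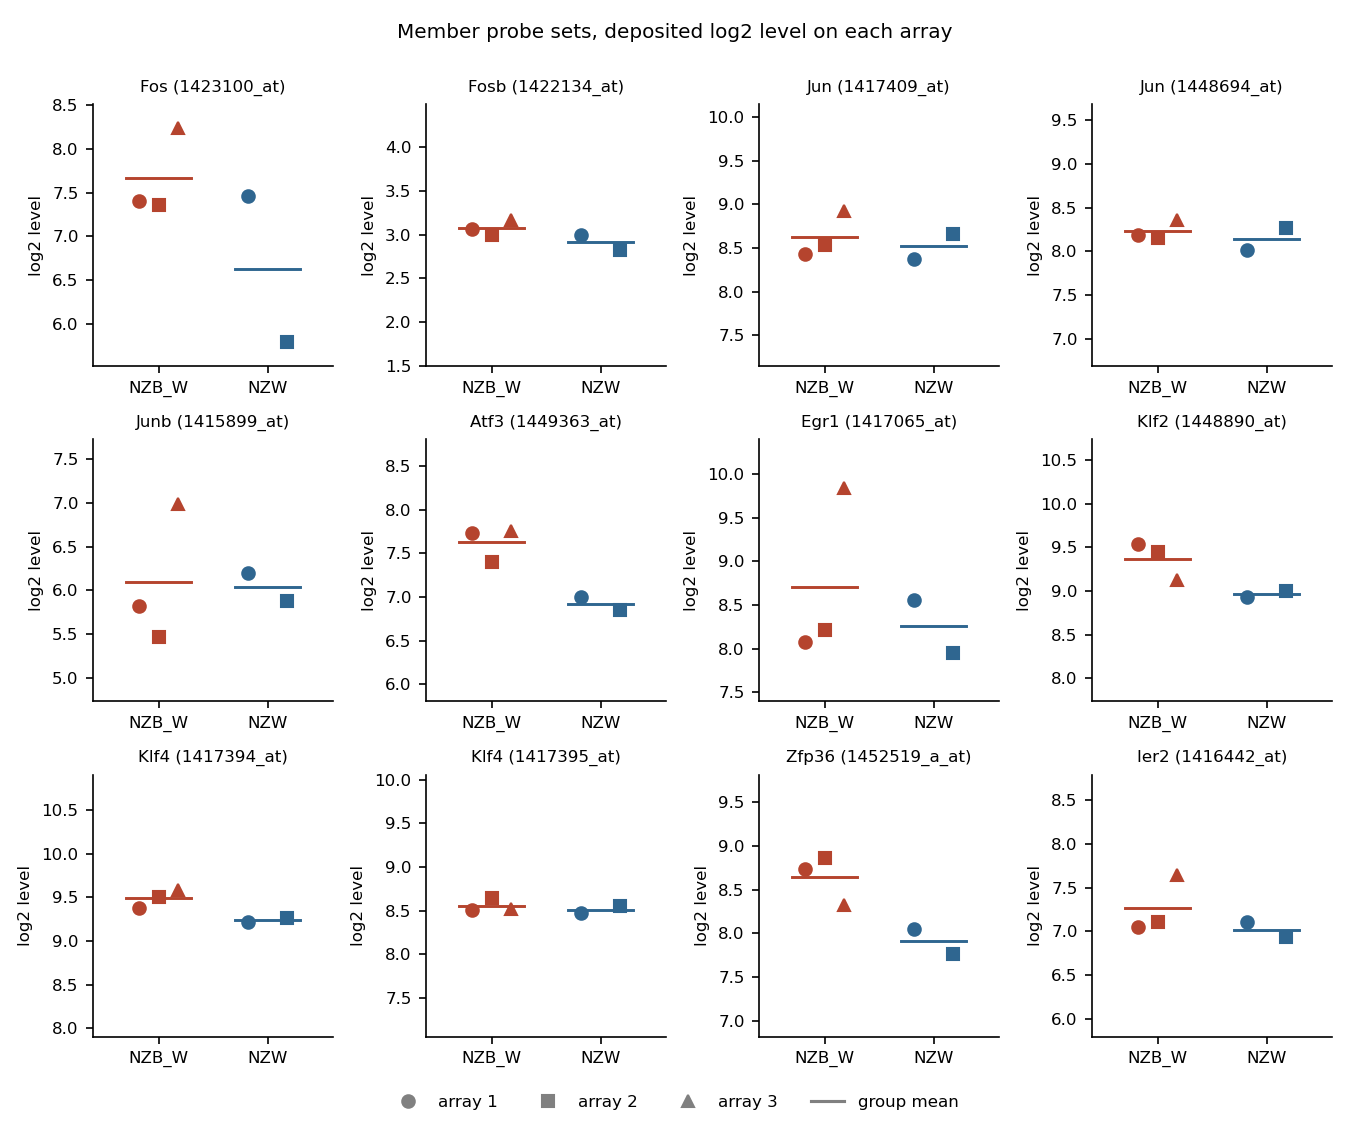
Deposited log2 level of the 12 member probe sets on each array, NZB_W (3 arrays) left and NZW (2 arrays) right; marker shapes give the array number, lines the group means, and every panel spans 3 log2 units. Atf3, Zfp36, Klf2 and the brighter Klf4 probe set have all NZB_W points above both NZW points, while Egr1, Junb and Fos have their highest point on NZB_W array 3.

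Among the AP-1 genes, Atf3 differed most steadily. It read 7.73, 7.40 and 7.76 on NZB_W arrays 1, 2 and 3, against 6.998 and 6.850 on NZW arrays 1 and 2. The lowest NZB_W value was 0.40 above the highest NZW value. Its means were 7.63 ± 0.200 (SD, n = 3) and 6.92 ± 0.105 (SD, n = 2), a log2 difference of 0.71 or 1.63-fold (95% interval 0.34 to 1.08, SE 0.14, limma adjusted p = 0.625). The difference did not pass the threshold of 0.05. It lay between 0.63 and 0.82 with any 1 array left out, and was 0.57 without NZB_W array 3 and NZW array 2 together.

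Fos had the largest log2 difference of the 10 genes and one of the widest intervals. It read 7.40, 7.35 and 8.24 on NZB_W arrays 1, 2 and 3, against 7.46 and 5.79 on NZW arrays 1 and 2. The groups overlapped: NZW array 1 lay above NZB_W arrays 1 and 2, and NZW array 2 lay far below all others. The log2 difference of 1.04 had a 95% interval from -0.51 to 2.59 (SE 0.59, adjusted p = 0.883). It was 0.21 without NZW array 2 and 1.88 without NZW array 1, and -0.08 without both NZW array 2 and NZB_W array 3.

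Junb, a partner of Fos that often restrains Jun, had a wide spread within NZB_W. It read 5.82, 5.47 and 6.99 on NZB_W arrays 1, 2 and 3, against 6.19 and 5.88 on NZW arrays 1 and 2, so that NZB_W held both the highest value and the 2 lowest. The log2 difference was 0.06 (95% interval -1.24 to 1.35, adjusted p = 0.992), and it lay between -0.39, without NZB_W array 3, and 0.37, without NZB_W array 2, so a difference in either direction was within its error. Jun, the other core partner, read 8.43, 8.53 and 8.92 in NZB_W against 8.37 and 8.66 in NZW on its brighter probe set. Its difference there was 0.11 (95% interval -0.39 to 0.60, adjusted p = 0.929), and on the other it was 0.09 (-0.21 to 0.39, adjusted p = 0.905). Both Jun probe sets overlapped between the groups, and both were highest on NZB_W array 3.

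Fosb, the second Fos-type partner, was below the lower quartile of every array. It read 3.065, 2.996 and 3.165 in NZB_W against 2.996 and 2.827 in NZW. It was not tested. Its log2 difference of 0.16 rests on values at the dim end, where the background step of array processing matters most. Over the 5 AP-1 genes the median log2 difference was 0.16, with Atf3 and Fos above the other 3.

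**Figure D3:**
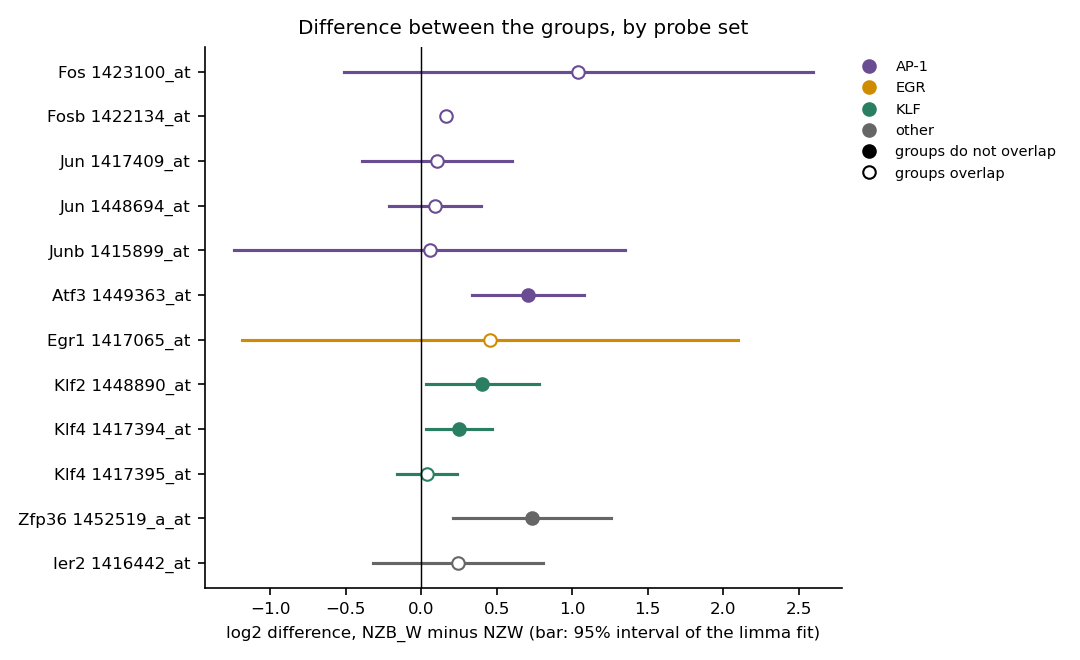
Log2 difference, NZB_W minus NZW, of each member probe set with the 95% interval of the limma fit (Fosb was not tested and has none); colours give the gene family, filled points have groups that do not overlap. The intervals of Atf3, Zfp36, Klf2 and the brighter Klf4 probe set lie above 0, and those of Fos, Junb and Egr1 are the widest.

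Egr1 was far higher on NZB_W array 3 than on any other array. It read 8.07, 8.21 and 9.84 on NZB_W arrays 1, 2 and 3, against 8.56 and 7.95 on NZW arrays 1 and 2. NZB_W arrays 1 and 2 lay between the NZW arrays, and array 3 lay above both. The log2 difference of 0.46 had a 95% interval from -1.18 to 2.10 (SE 0.62, adjusted p = 0.908), and it was -0.11 without NZB_W array 3. The range within NZB_W, 1.77, was the widest of the 10 genes in that group.

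Klf2 and Klf4 averaged higher in NZB_W on each of their 3 probe sets, and none passed the adjusted threshold. Klf2 read 9.54, 9.45 and 9.13 on NZB_W arrays 1, 2 and 3, against 8.93 and 9.00 on NZW arrays 1 and 2. Its groups did not overlap, and NZB_W array 3 was the lowest of its group, 0.13 above the higher NZW array. The log2 difference of 0.41, 1.32-fold, had a 95% interval from 0.03 to 0.78 (SE 0.14, limma adjusted p = 0.883). It did not pass the threshold and lay between 0.32 and 0.53 with any 1 array left out.

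Klf4 gave different answers on its 2 probe sets. The brighter one read 9.38, 9.50 and 9.59 in NZB_W against 9.22 and 9.26 in NZW. Its groups did not overlap. Its log2 difference was 0.25, 1.19-fold (95% interval 0.03 to 0.47, limma adjusted p = 0.883). The other read 8.50, 8.64 and 8.52 in NZB_W against 8.47 and 8.55 in NZW, which overlapped, with a difference of 0.04 (-0.16 to 0.24, adjusted p = 0.930). Averaged over both probe sets the Klf4 difference was 0.15. Klf2 and Klf4 can be set beside endothelial markers. These markers were higher in NZB_W in 6 of 8 genes (median 0.07), against 45.5% of all genes tested. Their summed level was 11.77, 11.68 and 11.95 in NZB_W against 11.72 and 11.65 in NZW on the log2 scale, and its part in the Klf2 and Klf4 values was not tested.

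Zfp36 had the second largest log2 difference. It read 8.74, 8.87 and 8.33 on NZB_W arrays 1, 2 and 3, against 8.05 and 7.76 on NZW arrays 1 and 2. The groups did not overlap, and NZB_W array 3 was again the lowest of its group. The means were 8.64 ± 0.283 (SD, n = 3) and 7.91 ± 0.203 (SD, n = 2), a log2 difference of 0.74 or 1.67-fold (95% interval 0.21 to 1.26, SE 0.20, limma adjusted p = 0.789). Its probe set ends in _a_at, which marks several transcripts of 1 gene. Ier2 read 7.04, 7.10 and 7.65 in NZB_W against 7.10 and 6.94 in NZW, so the groups overlapped and NZB_W array 3 was highest. Its difference was 0.24 (95% interval -0.32 to 0.81, adjusted p = 0.883), and 0.05 without NZB_W array 3.

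The members differed in their order of arrays, and 5 arrays are too few to sort genes by pattern. Within NZB_W, 8 of the 10 genes were highest on array 3 by their brightest probe set, while Klf2 and Zfp36 were lowest there. The margin was wide in Fos, Egr1, Junb and Ier2 and 0.03 in Atf3. The 8 include the dim Fosb, and Klf4, whose other probe set was highest on NZB_W array 2. Within NZW, array 1 was above array 2 in 7 of the 10, and Jun, Klf2 and Klf4 were higher on array 2. Fos, Fosb, Egr1, Junb, Ier2 and Atf3 thus stood highest, in each group, on the array with the most atrial signal by Myl7, Myl4 and Sln. Atrial signal varied widely within both groups. NZB_W minus NZW, the group means differed by 0.09 for Myl7 (SE 3.78), 0.28 for Myl4 and 0.06 for Sln. The difference was 0.24 for Nppa and -0.79 for Bmp10, which was too dim to be tested. With such spread on so few arrays, close means do not show that atrial content was alike in the groups. The part of atrial content in the members' values was not tested, beyond a fit with atrial markers as a covariate that is described under the alternatives. Between the arrays with little atrial signal, NZB_W array 1 minus NZW array 2, the difference was 0.88 for Atf3, 0.97 for Zfp36, 0.54 for Klf2, 0.12 for Klf4 and 1.61 for Fos, but 0.12 for Egr1 and -0.06 for Junb. In this pair it was -0.24 for Jun, 0.24 for Fosb and 0.11 for Ier2. Between the arrays with much, NZB_W array 3 minus NZW array 1, the difference was 0.76 for Atf3, 0.27 for Zfp36, 0.20 for Klf2, 0.37 for Klf4 and 0.78 for Fos, and 1.29 for Egr1 and 0.79 for Junb. In this pair it was 0.55 for Jun, 0.17 for Fosb and 0.55 for Ier2. These are differences of single arrays, compared after the atrial levels were seen, with no test. The arrays of a pair are alike in these atrial markers only. The first pair holds NZW array 2, whose 18S control read 12.69. The second holds NZB_W array 3, which stood apart in its correlations and had the lowest beta-actin 5′ minus 3′ difference (-1.31). The part of this in the pair differences was not tested.

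**Figure D4:**
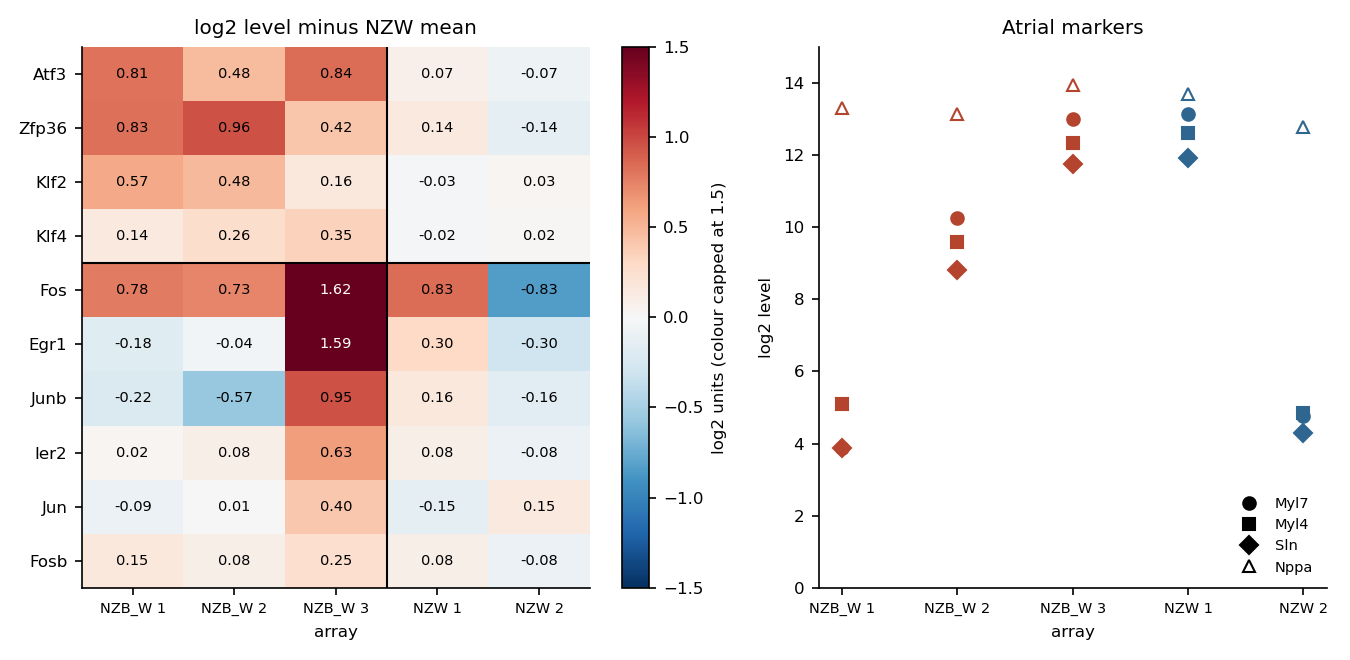
Left, log2 level of each member gene on each array minus its NZW mean, NZB_W arrays first, with genes whose groups do not overlap above the line. Right, log2 level of 4 atrial markers on the same arrays: Myl7, Myl4 and Sln are low on NZB_W array 1 and NZW array 2 and high on NZB_W array 3 and NZW array 1, while Nppa stays between 12.77 and 13.96.

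All 12 macrophage markers averaged higher in NZB_W (median log2 difference 0.61), beside 45.5% of all genes tested. Their summed log2 level was 12.32, 12.26 and 13.06 in NZB_W against 12.15 and 11.68 in NZW, highest on NZB_W array 3. Macrophages can express Atf3, Zfp36, Egr1 and Fos, and their part in those values was not tested. On that array Klf2 and Zfp36 were lowest within NZB_W, while Atf3, Egr1 and Fos were highest. Zfp36 and the summed macrophage level were both higher on average in NZB_W, and both had their lowest value on NZW array 2. Fibroblasts and smooth muscle are both able to express AP-1 genes and Egr1. Their markers were higher in NZB_W in 5 of 8 and 5 of 5 genes, beside 45.5% of all genes tested. The summed fibroblast level was 13.42, 13.54 and 14.40 in NZB_W against 13.81 and 13.68 in NZW. That of smooth muscle was 10.63, 10.87 and 11.51 against 10.83 and 10.69. Both were thus highest on NZB_W array 3, as Fos, Egr1 and Junb were, and their part in those values was not tested. Red cell markers, 4 on the array, summed to 9.98, 8.19 and 10.50 in NZB_W against 7.53 and 7.34 in NZW. Neutrophil markers were tested in 3 of 6 genes, 1 of them higher, with a summed level of 6.74 to 7.78 in NZB_W against 7.18 to 7.37 in NZW. T and B cell markers met the brightness filter in 2 of 7, Cd3e and Cd4, and their summed level was 7.57 to 7.84 against 7.63 to 7.69.

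In the wider early response, 25 of 29 other immediate early genes were higher in NZB_W, beside 45.5% of all genes tested, with a median log2 difference of 0.09, and 0 passed the adjusted threshold by limma. At an unadjusted p under 0.05, 4 were higher and 1 lower, beside 5.22% of all genes in either direction. Nr4a1, an orphan nuclear receptor of the same early class, read 10.03, 9.47 and 9.63 in NZB_W against 9.28 and 8.45 in NZW, a difference of 0.85 (SE 0.31, adjusted p = 0.883). Per1, a clock gene also induced early and by glucocorticoids, read 7.57, 7.89 and 7.58 against 7.19 and 7.17, a difference of 0.50 (SE 0.12, adjusted p = 0.730). Plk3, a stress-responsive kinase, differed by 0.37 (SE 0.11, adjusted p = 0.847). Arc, best known as a neuronal early gene, went the other way: it read 5.55, 5.87 and 5.45 in NZB_W against 6.31 and 6.48 in NZW, a difference of -0.77 (SE 0.15, adjusted p = 0.625).

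The remaining families were mixed, and 0 of their genes passed the adjusted threshold by limma. Of 15 other AP-1 family genes 0 had an unadjusted p under 0.05, beside 5.22% of all genes, and 11 were higher (median 0.11), beside 45.5%. Among these, Atf4, the integrated stress response factor, differed by 0.17 (SE 0.07), and by 0.35 on another bright probe set, and Maff, a small Maf protein, by 0.27 (SE 0.14). Fosl2, a Fos relative, differed by 0.43 (SE 0.17) and by -0.13 on another bright probe set, and Atf6, an unfolded protein sensor, by 0.33 (SE 0.18) and by -0.06 and 0.05 on 2 others.

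Among other Krüppel-like genes 5 of 11 were higher and 6 lower (median -0.09), beside 45.5% of all genes higher. At an unadjusted p under 0.05, 1 was higher and 2 lower, beside 5.22% of all genes in either direction. Klf12, a repressor, read 7.52, 7.77 and 7.51 in NZB_W against 8.205 and 8.31 in NZW, a difference of -0.66 (SE 0.11, adjusted p = 0.526). Its 2 other bright probe sets differed by -0.27 and -0.17. Klf3, also a repressor, differed by -0.32 (SE 0.09, adjusted p = 0.815), but by -0.23 to -0.0020 on 5 other bright probe sets. Klf6, an early-induced relative of Klf4, read 9.06, 8.87 and 8.48 against 8.27 and 8.39, a difference of 0.47 (SE 0.19), and its 3 other bright probe sets differed by 0.36 to 0.57. Klf9, a glucocorticoid target, differed by 0.19 (SE 0.07), while its 5 other bright probe sets ran from -0.12 to 0.51.

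The EGR relatives and the NAB proteins, which bind EGR factors and restrain them, were higher in 4 of 5 genes (median 0.18), beside 45.5% of all genes. Of these genes 0 had an unadjusted p under 0.05, beside 5.22% of all genes. The values were 0.41 (SE 0.19) for Wt1, 0.28 (SE 0.22) for Nab1 (0.070 on its other bright probe set), 0.18 (SE 0.17) for Egr4 and -0.07 (SE 0.12) for Egr3. The other Egr3 probe set did not meet the brightness filter. It read 5.60 on NZB_W array 3 and 3.29 to 4.34 on the other arrays, a difference of 0.18. Egr2, also too dim to be tested, read 5.16 on NZB_W array 3 and 3.13 to 3.84 on the others. The MAPK phosphatases and feedback inhibitors, transcribed in the same response and acting to end it, were higher in 11 of 14 genes (median 0.14), beside 45.5% of all genes. At an unadjusted p under 0.05, 2 were higher, beside 5.22% of all genes in either direction. Dusp6, the phosphatase of ERK kinases, read 7.98, 8.15 and 8.59 in NZB_W against 7.52 and 7.29 in NZW, a difference of 0.83 or 1.78-fold (SE 0.21, adjusted p = 0.744). Dusp10, a phosphatase of stress kinases, differed by 0.36 (SE 0.12), Dusp5 by 0.19 (SE 0.07) and Dusp1, an early gene that switches off p38 and JNK, by 0.45 (SE 0.18). Every NZB_W array lay above both NZW arrays in 5 of the 14 genes, these 4 among them, beside 6.96% of all probe sets; the 4 are named for their small p, which favours groups that lie apart.

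Upstream of the members, the kinases and the SRF, ETS and CREB factors were split, with a median of 0.00. Of the 17 genes 9 were higher, beside 45.5% of all genes. At an unadjusted p under 0.05, 1 was lower, beside 5.22% of all genes in either direction. That gene was Rps6ka5, the kinase MSK1 that phosphorylates CREB and histone H3, which read 5.29, 5.89 and 6.04 in NZB_W against 6.65 and 6.36 in NZW, a difference of -0.77 (SE 0.26, adjusted p = 0.883). Its other bright probe set differed by -0.92. Mapk14, which encodes p38 alpha, differed by -0.18 (SE 0.08), and by -0.20 to 0.17 on 4 other bright probe sets. Mapk8, which encodes JNK1, differed by 0.27 (SE 0.12), and by -0.26 to 0.20 on 3 others, and Srf by 0.27 (SE 0.16) and 0.05 on its other bright probe set. The Zfp36 relatives Zfp36l1 and Zfp36l2 differed by -0.10 (SE 0.21) and -0.13 (SE 0.30). The other bright probe set of Zfp36l1 differed by -0.12, and those of Zfp36l2 by 0.03 and 0.0093.

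Of 3 endothelial genes that Klf2 and Klf4 are known to induce, S1pr1, the receptor of sphingosine 1-phosphate, differed by 0.77 or 1.70-fold. It read 8.53, 8.404 and 8.05 in NZB_W against 7.85 and 7.28 in NZW (SE 0.23, adjusted p = 0.883). Nos3, endothelial nitric oxide synthase, and Thbd, thrombomodulin, differed by -0.09 (SE 0.09) and -0.04 (SE 0.09). Glucocorticoid-responsive genes, of which Per1, Dusp1 and Klf9 are named above, were higher in 11 of 13 (median 0.45), beside 45.5% of all genes tested. At an unadjusted p under 0.05, 5 were higher, beside 5.22% of all genes in either direction. The 2 lower genes of the list were Pdk4 (-0.93, SE 0.63) and Zbtb16 (-0.43, SE 0.22), each on its brightest probe set. Cdkn1a, the cell cycle inhibitor p21, read 9.07, 8.91 and 8.71 in NZB_W against 7.77 and 8.12 in NZW (difference 0.95, SE 0.16, adjusted p = 0.526, and 0.89 on its other bright probe set). Errfi1, a feedback inhibitor of the EGF receptor, read 9.79, 9.89 and 8.96 against 8.33 and 8.69 (difference 1.04, SE 0.33, adjusted p = 0.883, and 0.91 on its other bright probe set), and Cebpd, a bZIP factor, differed by 0.68 (SE 0.12, adjusted p = 0.555) and by 0.19 on its other bright probe set.

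**Figure D5:**
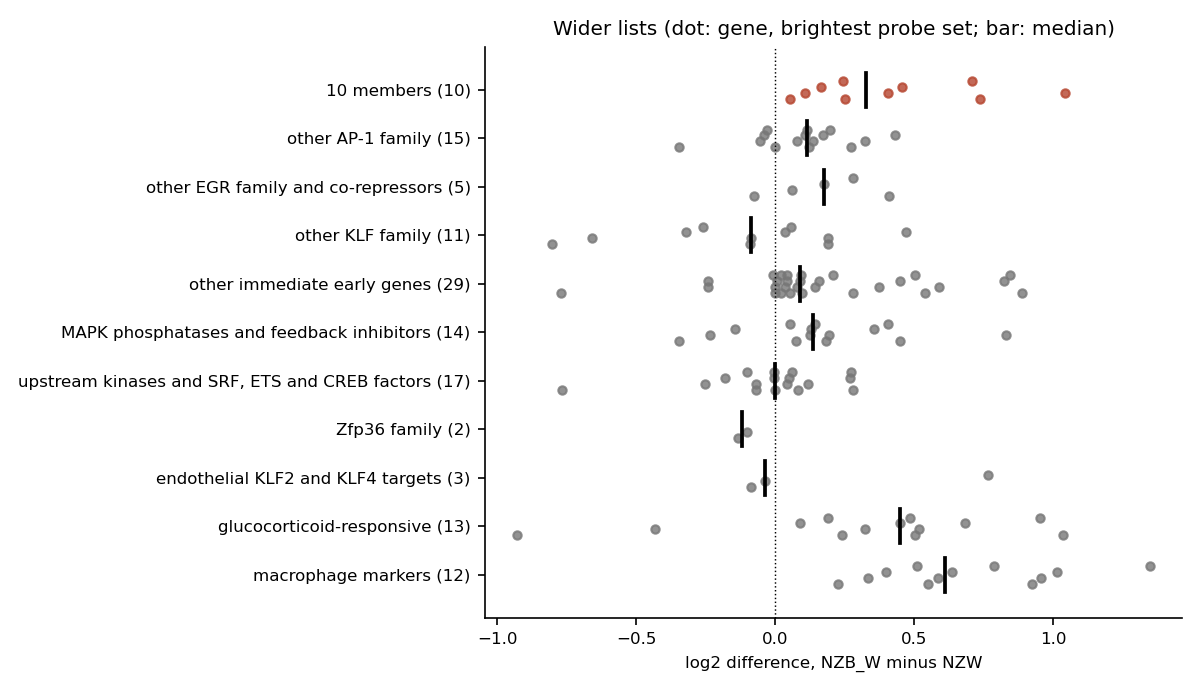
Log2 difference, NZB_W minus NZW, of the 10 members and of the genes tested in each wider list (number in brackets), with the list median as a bar; the members lie between 0.06 and 1.04 with a median of 0.33. The medians of macrophage markers (0.61) and glucocorticoid-responsive genes (0.45, with 2 genes below 0) lie to the right of 0, and the upstream kinases and factors are centred on it.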

How the data were processed

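Heart RNA of 3 NZB_W and 2 NZW mice was measured on Affymetrix Mouse Genome 430 2.0 arrays. The deposited values are log2 levels per probe set that the authors normalized over the arrays. RMA, GCRMA and Partek stand in the submitters' processing notes, with no version and no word on which made these values. Of 45101 probe sets 64 are controls, which were left out, and 34958 carry 1 gene symbol, updated through Entrez identifiers (0 changed). No columns beyond the 5 samples were present. Probe sets above their array's median on at least 2 arrays (22804) were fitted by lmFit and eBayes of limma 3.58.1 (R 4.3.3; a two-sided test without covariates), then Benjamini-Hochberg adjustment and a threshold of 0.05; SE and 95% intervals are limma's moderated ones. For gene counts the brightest probe set of each gene by mean level was used. The fit was tested on simulated data. Members, gene lists and alternatives were chosen with earlier results of these data known. From each wider list the text names up to 4 genes with the smallest p. It also names Egr2 and the 2 lower glucocorticoid-responsive genes. Titles share replicate numbers 1 and 2, but nothing says that they pair animals. Promoter windows are RefSeq's for GRCm38.p6. Alternatives covered filter, normalization, probe set choice, variance model, array weights, replicate block, threshold and left-out arrays. A fit with atrial markers as a covariate was added after the data were seen. Figures were drawn with matplotlib 3.10.9.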

Additional observations from a re-analysis of the deposited data

How the results depend on the processing

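The count of member probe sets past the adjusted threshold was 0 under all 19 alternatives, with the smallest member adjusted p at 0.312, with array weights. Atf3, Zfp36, Klf2, Klf4 and Fosb kept a higher NZB_W mean under every alternative that gave them a value; without _s_at, _x_at and _a_at probe sets Zfp36 has none. With single arrays left out, the median over the 10 members lay between 0.16 and 0.37, that over the AP-1 genes between 0.12 and 0.37 (the highest, without NZB_W replicate 2) and that over the Klf genes between 0.30 and 0.36. With both NZB_W array 3 and NZW array 2 left out, the median over the members was 0.070, that over the Klf genes 0.39, and the differences of Fos, Junb, Egr1 and Ier2 turned to -0.081, -0.55, -0.41 and -0.029. Leaving out 1 array moved Fos between 0.21 and 1.88, Ier2 between 0.05 and 0.36, Jun between -0.040 (without NZB_W replicate 3; -0.038 without NZW replicate 1) and 0.25, Junb between -0.39 and 0.37 (-0.10 without NZW replicate 2) and Egr1 between -0.11 and 0.78. With array weights Junb was -0.29. The replicate block leaves NZB_W array 3 no influence: Jun was then -0.040, Junb -0.39 and Egr1 -0.11, the median over the members was 0.16, and the block called 0 of all probe sets against 5 without it. Deviations of same-numbered arrays correlated at -0.03 and 0.04. With only 2 NZW arrays the NZW deviations mirror each other, so these correlations cannot show whether animals were paired. The numbers are not taken as pairs because nothing in the labels says that they are. Apart from the left-out arrays, the block and the weights, the cause of these changes was not tested. The atrial covariate has close group means, so it could hardly move the differences and says nothing of their stability. With it the SE of Fos was 0.33, against 0.59 in the main fit, and that of Egr1 0.45 against 0.62. The SE was also smaller for Junb, Ier2 and Klf2, and larger for Atf3, Jun, Klf4 and Zfp36. Over all probe sets, alternatives called between 0 and 16. With 5 arrays, precision limits every value.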
